A study of Mus musculus with 12 samples.

Results

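Oncofetal genes are active in the fetal liver, are switched off after birth and come back in hepatoblastoma and hepatocellular carcinoma (HCC). *Afp*, which codes for the serum protein alpha-fetoprotein, is the best-known of them, and *Gpc3*, which codes for the cell surface proteoglycan glypican 3, serves as a tissue marker of HCC. LIN28B blocks the maturation of let-7 microRNAs, and let-7 microRNAs in turn repress several RNA-binding proteins and chromatin factors of the fetal program. The 10 genes described here were *Afp*, *Gpc3*, *Bex2*, *Bex1*, *Igf2bp1*, *Igf2bp2*, *Igf2bp3*, *Lin28b*, *Sall4* and *Hmga2*, out of 17007 genes in the deposited expression values of mouse liver and liver tumors. They were taken by symbol as fetal liver and hepatoblastoma genes that are not imprinted, and the group was chosen on measured values of these same libraries, among them the high levels of *Afp* and *Bex2* in vehicle-treated tumors relative to normal liver. The differences between tumors and normal liver are therefore given below as a description with no test. The vehicle-treated tumors also stand in both drug comparisons, so that the choice bears on those too.

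RNA-seq was done on whole tissue from 12 mice in 4 groups of 3. Normal liver (NL) came from WT mice with no treatment. All 9 tumors carried the genotype RictorKOTsc2KO and were c-MYC tumors, made in hepatocytes by hydrodynamic tail vein injection of plasmids for c-MYC, MCL1 and Cre recombinase into mice homozygous for floxed Rictor and Tsc2 (Rictor fl/fl, Tsc2 fl/fl), so that vehicle-treated tumors also lacked Rictor (mTORC2) and Tsc2 (the brake on mTORC1). Mice were given vehicle, MLN0128 or everolimus by gavage at 1 mg/kg/day on 6 days a week for 3 weeks, from day 6 after injection, and were sacrificed at 3.7 weeks, as labelled. The running text of the study describes a course of days rather than weeks for the sequenced tumors, so that the length of treatment behind every drug difference below is not settled. MLN0128 inhibits the mTOR kinase itself (mTORC1 and mTORC2), whereas everolimus, derived from rapamycin, targets mTORC1. Cre was driven by a CMV promoter and reached only the cells that took up plasmid, and tumor tissue can hold other cells, which keep both genes.

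Values are FPKM (fragments scaled by exon length and by library size), so that genes of different length can be compared. The libraries held 17167084 to 25185696 reads as recovered from the FPKM. *Rictor* was at 1.65 to 2.57 FPKM in normal liver and 1.05 to 2.21 FPKM in tumors, and *Tsc2* was at 4.5 to 5.32 and 2.01 to 3.96 FPKM. A value for a whole gene does not show whether the deleted exons are missing. The summed FPKM of 7 hepatocyte markers was 81614 to 100544 in normal liver and 1826 to 7889 in tumors, so that the markers of the labelled tissue were present in all 12 libraries. Everolimus replicate 2 stood apart from the other everolimus tumors. Its hepatocyte marker sum was 7889 FPKM against 3428 and 3099, its sum of 7 Kupffer cell and macrophage markers was 167 FPKM against 59.9 and 63.2, and its sum of 6 biliary markers was 66.2 FPKM against 23.7 and 21.2. In replicate 2 the hepatocyte sum was mostly *Alb*, at 4860 FPKM against 1320 and 851 FPKM in the other everolimus tumors. *Apoa1*, *Ttr*, *Cyp2e1* and *Hnf4a* were also highest in replicate 2 among these tumors, and *Cps1* and *Serpina1c* were not. The biliary sum was mostly *Spp1*, at 57.5 FPKM in replicate 2, where *Krt19* was at 0.944 FPKM. MLN0128 replicates 1 and 2 had *Xist* at 191 and 155 FPKM and *Ddx3y* at 0, whereas the other libraries had *Xist* at 0.0699 FPKM or less and *Ddx3y* at 9.60 FPKM or more, which is the pattern of female mice in these 2 MLN0128 tumors and of male mice in the others. *Gpc3*, *Bex1* and *Bex2* are X-linked, and their values in MLN0128 replicate 3 are therefore given separately below. Sex was mixed with MLN0128 treatment for all genes, X-linked or not, and its part in the differences was not tested.

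Sequences of the genes are shown first because the genes fall into 2 sets by what their 3′ UTRs hold. All 11 mature let-7 family entries of the RefSeq miRNA set (GRCm38.p6, miR-98 included) share the same seed, bases 2 to 8, shown in capitals.
mmu-let-7a-5p: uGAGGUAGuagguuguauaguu
mmu-let-7g-5p: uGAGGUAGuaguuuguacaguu
mmu-let-7d-5p: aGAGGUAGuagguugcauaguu
The match to this seed, CTACCTC, was searched on the transcript strand in the longest annotated 3′ UTR of each gene (GENCODE M21, GRCm38). It occurred 15 times in 6 of the 10 genes. *Lin28b*, *Hmga2* and *Igf2bp1* held 4 matches each, and *Igf2bp2*, *Igf2bp3* and *Sall4* held 1 each. No match was found in *Afp*, *Gpc3*, *Bex2* or *Bex1*, whose 3′ UTRs were short, at 201 to 441 bases. Of 20988 genes with a 3′ UTR, 8.95% held the match at least once, and 16.8% of the 6143 genes whose 3′ UTR had 1697 to 6337 bases, the range of the 6 genes, did so. Only 6 of the 2380 genes with a 3′ UTR of 3014 to 6337 bases held 4 or more matches (0.252%), and *Lin28b*, *Hmga2* and *Igf2bp1* were 3 of them. These genes are textbook let-7 targets, and a match of letters is a description, not a measured binding site.

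One site is shown for each of the 6 genes, the first in the 3′ UTR, with the seed match in capitals and all on the minus strand of GRCm38.
*Lin28b*, 3′ UTR, chr10:45381012-45381040: gggcgggaagtCTACCTCatgcaagcaca
*Hmga2*, 3′ UTR, chr10:120364214-120364242: acattcaatttCTACCTCagcatcagttg
*Igf2bp1*, 3′ UTR, chr11:95961768-95961796: tgcgaagtaaaCTACCTCaaggtgtgaag
*Igf2bp2*, 3′ UTR, chr16:22059463-22059491: acaaataaaagCTACCTCaggtgtttttt
*Igf2bp3*, 3′ UTR, chr6:49086777-49086805: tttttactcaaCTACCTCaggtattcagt
*Sall4*, 3′ UTR, chr2:168748930-168748958: ctttaatttatCTACCTCaattatcttta

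**Figure D1:**
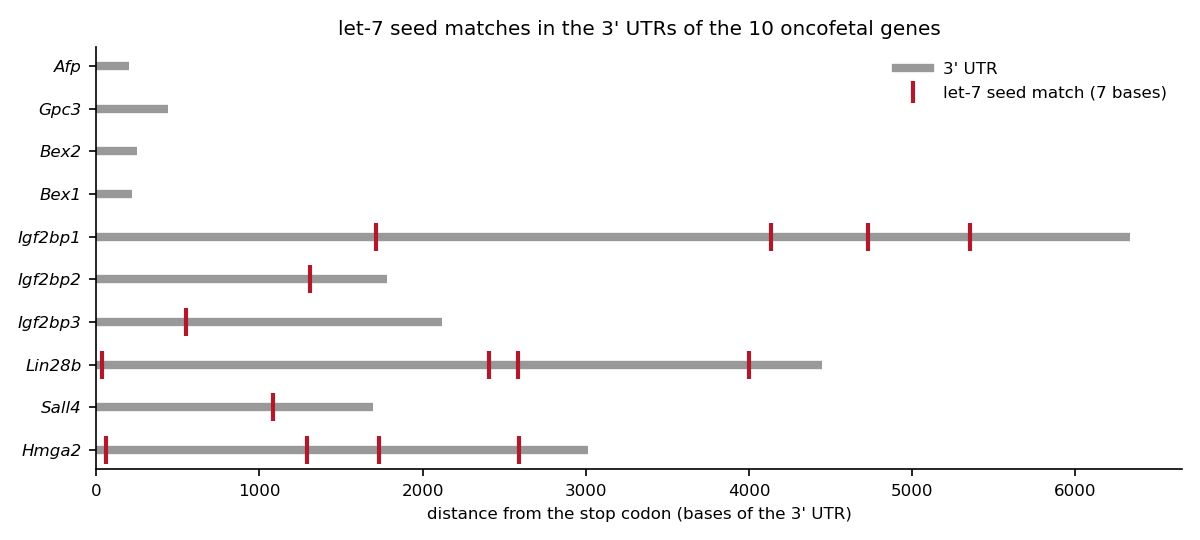
Positions of the 15 let-7 seed matches (red ticks) along the 3′ UTR (gray bars) of the 10 genes, with the distance from the stop codon in bases on the x axis. *Igf2bp1*, *Lin28b* and *Hmga2* hold 4 matches each, and the short 3′ UTRs of *Afp*, *Gpc3*, *Bex2* and *Bex1* hold none.

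The 4 genes without a let-7 seed match included the 3 with the highest levels in tumors. The 250 bases before the RefSeq transcription start of each of them are shown next (GRCm38.p6, 5′ to 3′ on the strand of the gene), with motif matches in capitals. The motifs searched on both strands were the E-box CACGTG, the binding site of MYC with its partner MAX, the GC box GGGCGG, the TATA box TATAAA, the forkhead core TGTTTAC and the HNF1 core GTTAAT.
*Afp*, chr5:90490464-90490713, plus strand: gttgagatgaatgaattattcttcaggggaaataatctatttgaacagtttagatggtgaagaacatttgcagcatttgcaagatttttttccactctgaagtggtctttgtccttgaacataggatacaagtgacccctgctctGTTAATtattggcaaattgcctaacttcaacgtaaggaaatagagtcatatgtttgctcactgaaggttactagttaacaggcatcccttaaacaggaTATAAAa
*Gpc3*, chrX:52613975-52614224, minus strand: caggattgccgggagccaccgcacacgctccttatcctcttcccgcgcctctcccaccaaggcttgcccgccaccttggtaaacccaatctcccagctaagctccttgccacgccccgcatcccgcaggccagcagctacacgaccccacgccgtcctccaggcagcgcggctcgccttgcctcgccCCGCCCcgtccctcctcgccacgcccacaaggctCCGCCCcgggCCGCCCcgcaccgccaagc
*Bex2*, chrX:136068237-136068486, minus strand: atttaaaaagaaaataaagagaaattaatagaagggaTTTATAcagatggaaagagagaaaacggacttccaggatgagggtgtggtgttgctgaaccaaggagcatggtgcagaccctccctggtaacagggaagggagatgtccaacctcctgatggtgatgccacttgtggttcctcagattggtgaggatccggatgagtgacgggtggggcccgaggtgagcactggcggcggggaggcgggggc
*Bex1*, chrX:136215514-136215763, minus strand: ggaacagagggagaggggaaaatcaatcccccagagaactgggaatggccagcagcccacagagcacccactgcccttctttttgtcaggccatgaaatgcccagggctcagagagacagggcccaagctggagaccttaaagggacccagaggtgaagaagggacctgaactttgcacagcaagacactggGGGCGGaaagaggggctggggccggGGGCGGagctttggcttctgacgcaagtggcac
The *Afp* promoter, with a GC content of 36.0%, held an HNF1 core 105 bases before the RefSeq start and a TATA box match only 7 bases before it. These motifs were held by 7.10% and 13.6% of all 32851 RefSeq promoter windows (250 bases before to 50 after the start). The *Gpc3* promoter, with a GC content of 71.6%, held 4 GC boxes, 3 of them before the start, and 35.7% of all windows held at least 1. The *Bex2* and *Bex1* promoters differed from each other. *Bex2* had a TATA box 213 bases before the start on the other strand and a GC box across the start, and *Bex1* had 2 GC boxes before the start and an E-box across it. E-boxes were also found in the windows of *Igf2bp3* (2 matches) and *Lin28b* (1 match), against 7.15% of all windows. The forkhead core, held by 3.65% of all windows, was in none of the 8 windows given for the genes. *Igf2bp2* and *Hmga2* held GC boxes (2 and 1 matches) and no other motif.

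In normal liver the 10 genes were low or at the limit of detection. *Afp* was the highest, with 2.53, 2.23 and 2.05 FPKM in the 3 livers. *Lin28b* and *Igf2bp1* had no read in any normal liver, which at this depth allows a mean of up to 0.0308 and 0.0288 FPKM (3 reads per library). These limits cover counting error only. *Sall4* and *Bex1* had 3 reads each over the 3 normal livers.

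In vehicle-treated tumors the genes spanned more than 4 orders of magnitude. *Afp* was at 1950, 1350 and 1520 FPKM (mean 1607 ± 309, SD, n = 3), which placed it 16th of 17007 genes, and its mean was 708 times that of normal liver. *Bex2* and *Bex1*, small X-linked genes of the brain expressed X-linked family, ranked 136th and 191st. *Bex2* was at 352, 298 and 270 FPKM in vehicle-treated tumors and 0.513, 0.603 and 0.318 FPKM in normal liver, and *Bex1* was at 278, 182 and 214 FPKM against 0.156, 0 and 0.0808 FPKM. The pooled ratio for *Bex1* was 2863 with an exact 95% counting interval of 980 to 13884, the width of which came from the 3 reads in normal liver. *Gpc3* was far lower than these, at 8.90, 7.14 and 11.7 FPKM in vehicle-treated tumors against 0.483, 0.641 and 0.428 FPKM in normal liver. All of these tumors lay above all normal livers.

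The RNA-binding and transcription factors of the set were at low levels in vehicle-treated tumors. *Igf2bp3*, an RNA-binding protein that binds *Igf2* mRNA, was the highest of them at 4.55, 5.55 and 4.98 FPKM, against 0.182, 0.678 and 0.153 FPKM in normal liver. *Lin28b* was at 0.489, 1.35 and 0.620 FPKM, at least 26.6-fold above the normal liver limit. *Igf2bp2* was at 0.536, 1.29 and 0.8 FPKM against 0.125, 0.270 and 0.117 FPKM. *Sall4*, a zinc finger transcription factor of stem and progenitor cells, was at 0.666, 0.480 and 0.217 FPKM, and its pooled ratio to normal liver was 26.6 with an exact 95% counting interval of 8.95 to 130. *Igf2bp1* and *Hmga2*, the high mobility group chromatin protein, stayed near the limit. *Igf2bp1* had 18 reads over the 3 vehicle-treated tumors, 17 of them in replicate 2, and *Hmga2* had 59 against 9 in normal liver, with tumor values of 0.0138, 0.119 and 0.254 FPKM that overlapped those of normal liver.

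**Figure D2:**
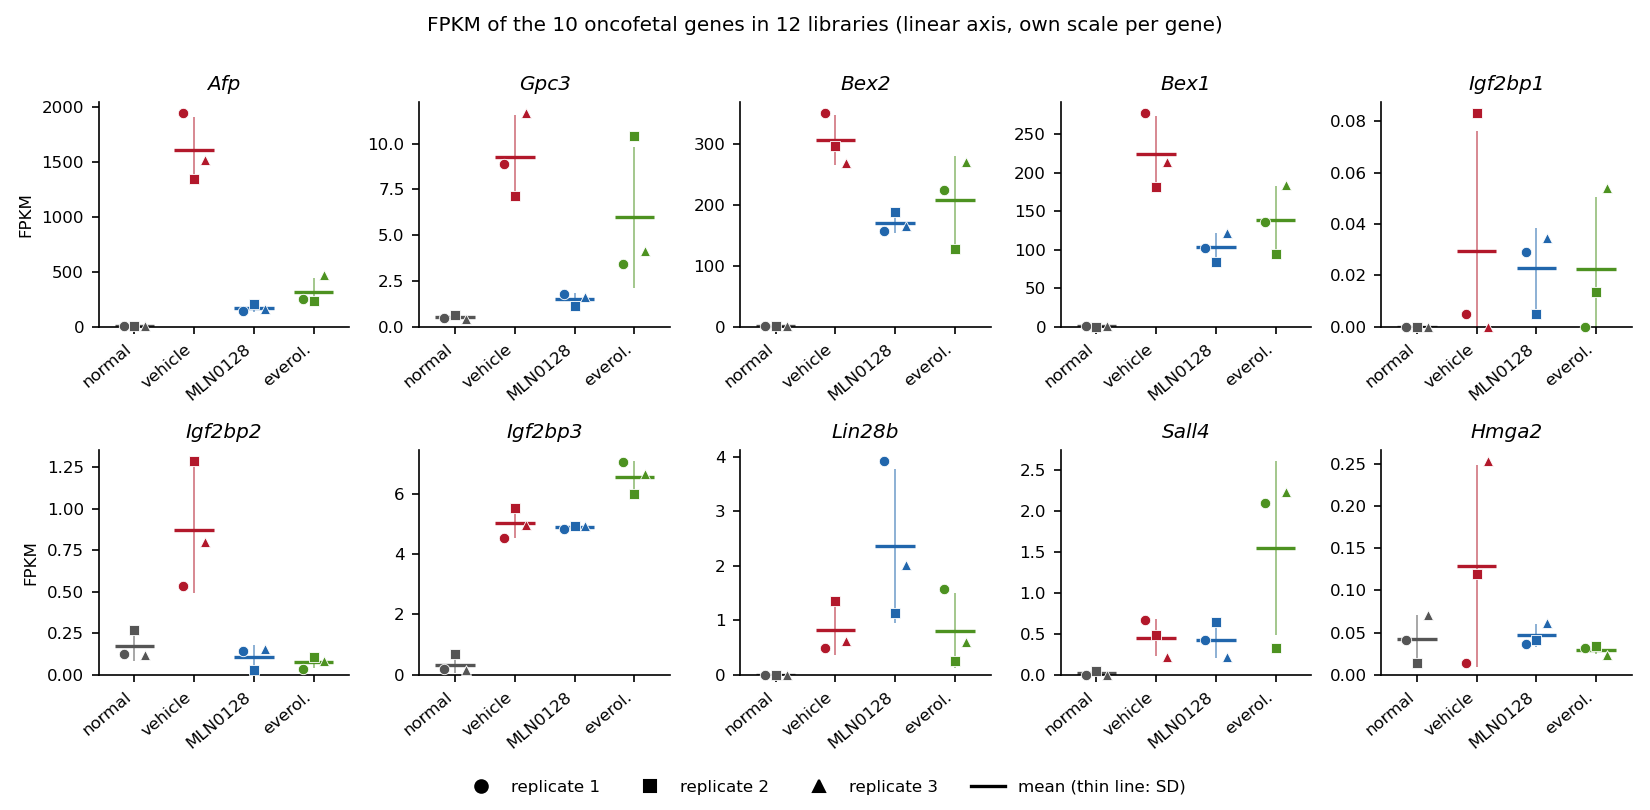
FPKM (y axis, linear from 0, own scale for each gene) of the 10 genes in normal liver and in vehicle-, MLN0128- and everolimus-treated tumors, with 1 marker per mouse, the mean as a thick line and the SD as a thin line. *Afp* goes from 1350 to 1950 FPKM with vehicle to 145 to 210 FPKM with MLN0128, and *Igf2bp3* stays between 4.55 and 7.05 FPKM in all tumors.

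Genes had to reach 0.5 FPKM in 3 or more of the 12 libraries, which left 14397 genes for testing, among them 8 of the 10. *Igf2bp1* and *Hmga2* did not pass it. *Igf2bp2* passed only through the vehicle-treated tumors, with 0.27 FPKM or less in every other library, and so had to be highest in them. Its differences are given as a description with no test. *Sall4* passed only with the help of the everolimus tumors, since 2 libraries outside that group reached the limit. Its differences with everolimus are therefore also a description with no test. Of the 8, all 3 vehicle-treated tumors were above all 3 normal livers for each, where 39.0% of all tested genes showed this. With MLN0128 and with everolimus the same was so for the 7 genes other than *Igf2bp2*, where 38.8% and 38.5% of all tested genes showed it. Since the group was chosen on such differences, these counts only describe it.

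Drug-treated tumors were then compared with vehicle-treated tumors on the log2(FPKM + 1) scale, which understates the change of low genes. Differences were tested by limma with Benjamini-Hochberg adjustment over the 14397 genes, first against a fold change of 1.5 (limma's treat test) and then against 0 (limma's moderated test). *Afp* and *Gpc3* were lower with MLN0128 in the 1.5-fold test, and *Afp* alone was lower with everolimus. The share of all tested genes that passed the 1.5-fold test was 1.65% downward and 0.479% upward with MLN0128, and 0.570% and 0.0347% with everolimus. Leaving *Igf2bp2* aside, 4 of the other 7 genes were lower with MLN0128 in the test against 0 (*Afp*, *Gpc3*, *Bex1* and *Bex2*), where the background was 17.1% of all tested genes lower and 14.9% higher. With everolimus 1 of the 7 was lower (*Afp*), where the background was 6.05% lower and 3.78% higher. The median difference of the 7 was -0.84 with MLN0128 and -0.62 with everolimus, against -0.01 and 0.03 over all tested genes. The 7 include *Sall4*, whose difference with everolimus is a description with no test. Since high levels in vehicle-treated tumors entered the choice of the group, these counts and medians only describe it. Leaving out *Sall4* with everolimus, none of the 7 was higher with either drug in either test, nor in the 1.5-fold test on recovered reads (limma's voom). At an unadjusted p under 0.05 in the test against 0 there was 1 with MLN0128 (*Lin28b*) and 1 with everolimus (*Igf2bp3*). *Sall4* also lay higher with everolimus but is not counted, since it passed the filter only with the help of those tumors. Fewer cells of a type and less RNA per cell cannot be told apart in whole tissue.

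*Afp* (chr5:90490737-90508907, plus strand, GRCm38) was at 145, 210 and 159 FPKM with MLN0128 and at 247, 232 and 466 FPKM with everolimus. Every drug-treated tumor was thus below every vehicle-treated tumor and above every normal liver. With MLN0128 the difference from vehicle was -3.22 (SE 0.251, treat adjusted p = 0.000183), a mean that was 9.38-fold lower. With the female MLN0128 replicates 1 and 2 left out, this difference was -3.31. With everolimus it was -2.40 (SE 0.251, treat adjusted p = 0.00271), a mean that was 5.10-fold lower. All 3 MLN0128 tumors were below all 3 everolimus tumors, but the difference between drugs of -0.82 (95% interval -1.37 to -0.27) did not pass the test against 0 (moderated adjusted p = 0.0626), and it depended on the everolimus tumors. Without replicate 2 it was -1.0 (moderated adjusted p = 0.0383), and without replicate 3 it was -0.50 (moderated adjusted p = 0.201). It also depended on the method, since with limma's voom on recovered reads it was -0.82 and passed (moderated adjusted p = 0.0469). Even so, *Afp* remained 190th with MLN0128 and 129th with everolimus among 17007 genes. Its mean was still 75.5 and 139 times that of normal liver.

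*Gpc3* (chrX:52272426-52613950, minus strand) differed between the drugs in the test against 0. It was at 1.77, 1.12 and 1.62 FPKM with MLN0128, below all vehicle-treated tumors, and the difference was -2.02 (SE 0.297, treat adjusted p = 0.0196). With everolimus it was at 3.40, 10.4 and 4.12 FPKM, 1 tumor lay within the range of vehicle, and the difference of -0.66 (95% interval -1.31 to -0.02) passed neither test (moderated adjusted p = 0.177). The difference between MLN0128 and everolimus was -1.35 (95% interval -2.0 to -0.70, moderated adjusted p = 0.0201), with all 3 MLN0128 tumors below all 3 everolimus tumors, and it did not pass the 1.5-fold test. Relative to everolimus, 5.54% of all tested genes lay lower and 3.99% higher in MLN0128 tumors in the test against 0, and 0.0347% and 0.00695% in the 1.5-fold test, which no member passed. The high everolimus tumor was replicate 2, the library with the high hepatocyte, macrophage and biliary marker sums. The part of those cells in the result was not tested. Without this tumor, the difference between drugs was -0.93 (moderated adjusted p = 0.0174), and without MLN0128 replicate 1 or everolimus replicate 3 it no longer passed (moderated adjusted p = 0.062 and 0.0554). Without everolimus replicate 2 the difference between everolimus and vehicle was -1.09 (moderated adjusted p = 0.0067). With the female MLN0128 replicates 1 and 2 left out, the difference between drugs was -1.28 (moderated adjusted p = 0.17), and the difference of replicate 3 from vehicle was -1.94 (treat adjusted p = 0.319, moderated adjusted p = 0.0244, the lone library being assumed to vary like the rest). The call of *Gpc3* in the 1.5-fold test also ended when vehicle replicate 1 or 3 or MLN0128 replicate 1 or 2 was left out singly, with treat adjusted p from 0.0603 to 0.0963 and differences from -2.10 to -1.85.

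*Bex2* and *Bex1* had smaller differences, which were close to each other. *Bex2* (chrX:136066564-136068236, minus strand) was at 157, 189 and 166 FPKM with MLN0128, and *Bex1* (chrX:136213972-136215513, minus strand) was at 102, 84.6 and 122 FPKM. All MLN0128 tumors were below all vehicle-treated tumors for both genes. The differences of -0.84 (moderated adjusted p = 0.0166) and -1.11 (moderated adjusted p = 0.00421) passed the test against 0 and not the 1.5-fold test. In MLN0128 replicate 3 alone they were -0.87 and -0.85 (moderated adjusted p = 0.126 and 0.119). With everolimus *Bex2* was at 225, 128 and 271 FPKM and *Bex1* at 136, 94.1 and 184 FPKM, overlapping vehicle, and neither difference passed a test (-0.62 and -0.73, moderated adjusted p = 0.11 and 0.0673). The lowest everolimus value of both genes was again that of replicate 2, without which the differences were -0.30 and -0.48.

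Among the IGF2 mRNA-binding proteins, *Igf2bp2* (chr16:22059009-22163299, minus strand) was at 0.143, 0.0254 and 0.152 FPKM with MLN0128 and at 0.0358, 0.107 and 0.0813 FPKM with everolimus, overlapping normal liver with MLN0128 and below all 3 normal livers with everolimus. The differences from vehicle on the log2(FPKM + 1) scale were -0.74 and -0.78, while the mean FPKM were 8.20-fold and 11.7-fold lower. These means rested on 61 and 44 reads against 424 with vehicle.

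*Igf2bp3* (chr6:49085223-49214957, minus strand) kept a level close to vehicle. It was at 4.84, 4.92 and 4.94 FPKM with MLN0128, and the difference of -0.03 had a 95% interval of -0.34 to 0.29. With everolimus it was at 7.05, 6.01 and 6.66 FPKM, with all 3 tumors above all vehicle-treated tumors, and the difference of 0.33 (95% interval 0.02 to 0.64) did not pass the adjusted test (moderated adjusted p = 0.165). *Igf2bp1* had 17 reads over the 3 tumors of each drug, and no difference was detectable at this depth.

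*Lin28b* (chr10:45376620-45486395, minus strand) was the member whose MLN0128 mean lay highest relative to vehicle. It was at 3.92, 1.14 and 2.02 FPKM with MLN0128, a range that overlapped vehicle, and the difference of 0.83 (95% interval 0.15 to 1.5) did not pass the adjusted test (moderated adjusted p = 0.0594). Without MLN0128 replicate 1 it was 0.51, and without everolimus replicate 2 it passed (moderated adjusted p = 0.0487). With the female MLN0128 replicates 1 and 2 both left out, it was 0.76. With everolimus *Lin28b* was at 1.58, 0.251 and 0.598 FPKM, and the difference from vehicle was -0.05 (95% interval -0.72 to 0.63). It was at least 76.6-fold above the normal liver limit with MLN0128 and at least 26.3-fold with everolimus.

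*Sall4* (chr2:168748332-168767943, minus strand) was at 0.420, 0.644 and 0.211 FPKM with MLN0128 and at 2.10, 0.328 and 2.23 FPKM with everolimus. The difference from vehicle with everolimus was 0.72, a description with no test because the filter needed the everolimus tumors. As for *Bex1* and *Bex2*, the low tumor was replicate 2, and without it the difference was 1.13, whereas without replicate 1 or 3 it was 0.52 or 0.49. *Hmga2* had 23 reads with MLN0128 and 15 with everolimus against 59 with vehicle, and its vehicle values overlapped both.

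**Figure D3:**
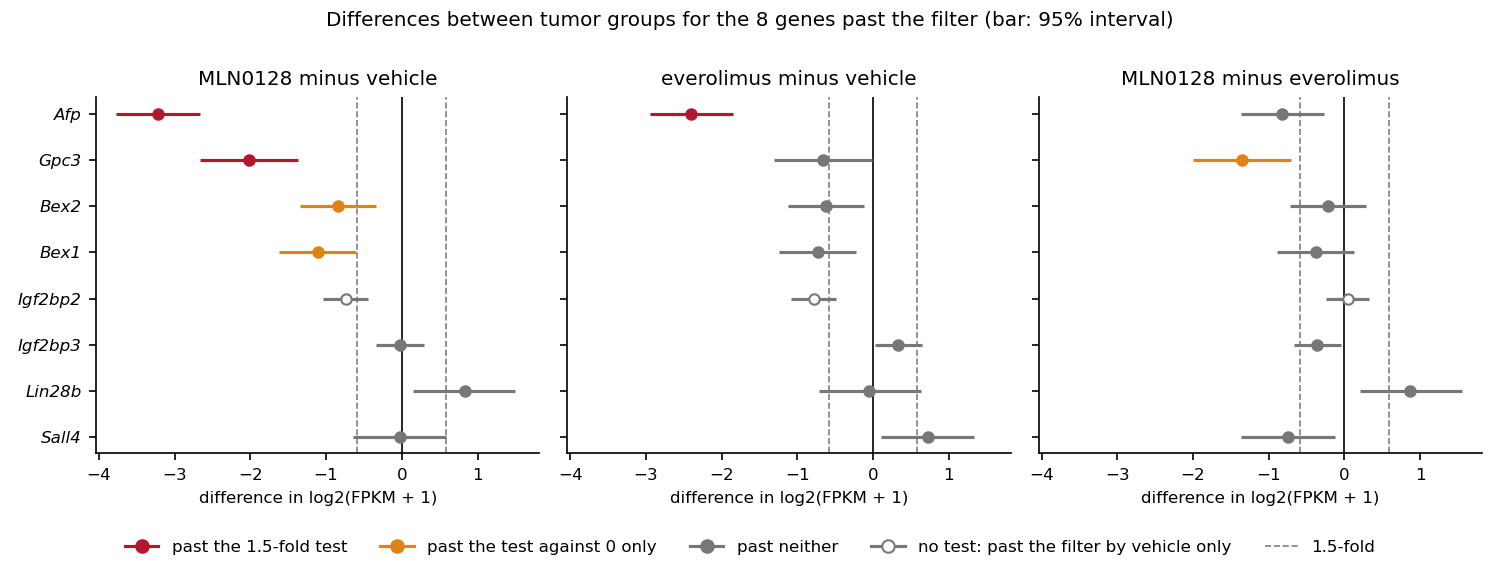
Difference in log2(FPKM + 1) (x axis) for the 8 genes past the filter between MLN0128 and vehicle, everolimus and vehicle, and MLN0128 and everolimus, with 95% intervals as bars and dashed lines at a 1.5-fold change. The open circles of *Igf2bp2* and the points of *Sall4* with everolimus are a description with no test. Red marks *Afp* and *Gpc3* with MLN0128 (-3.22 and -2.02) and *Afp* with everolimus (-2.40), which passed the 1.5-fold test, and orange marks those that passed the test against 0 only.

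**Figure D4:**
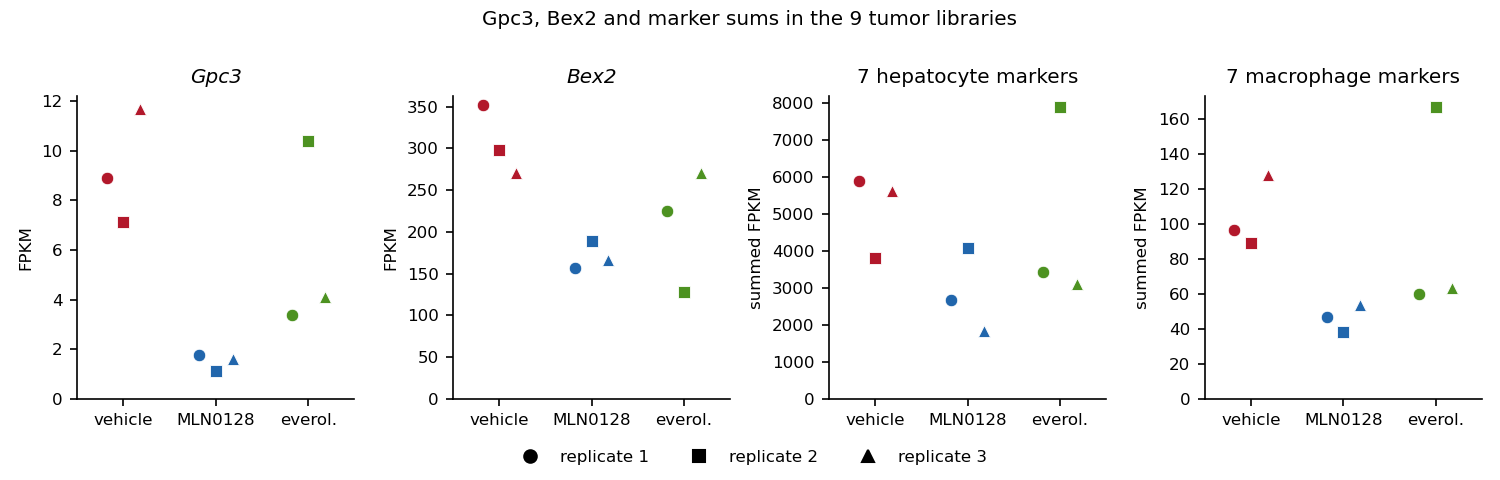
*Gpc3* and *Bex2* FPKM and the summed FPKM of 7 hepatocyte and 7 macrophage markers (y axes, linear from 0) in the 9 tumors, with marker shapes for replicates. Everolimus replicate 2 (green square) is the highest everolimus tumor for *Gpc3* (10.4 FPKM) and both marker sums (7889 and 167 FPKM) and the lowest for *Bex2* (128 FPKM).

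Partners and relatives of the members were examined from lists of pathway genes. None of the 17 genes of the albumin cluster and the regulators of *Afp* passed the 1.5-fold test with either drug. In the test against 0, 1 was lower and 3 were higher with MLN0128 (17.1% and 14.9% of all tested genes), and none passed with everolimus (6.05% and 3.78%). *Alb*, the neighbor of *Afp* in the cluster, was at 1780, 953 and 1840 FPKM with vehicle, 878, 1110 and 482 FPKM with MLN0128, and 1320, 4860 and 851 FPKM with everolimus. These groups overlapped, and the differences were -0.91 and 0.27 (moderated adjusted p = 0.244 and 0.812). *Zhx2*, a repressor that silences *Afp* after birth, was at 2.05 to 2.17 FPKM with vehicle and 1.89 to 2.81 FPKM with MLN0128 (difference 0.05, moderated adjusted p = 0.791), and at 2.69 to 3.07 FPKM with everolimus (0.30, moderated adjusted p = 0.133). *Zbtb20*, another repressor of *Afp*, was at 1.15 to 2.0 FPKM with vehicle, and its differences were 0.23 and 0.11 (moderated adjusted p = 0.425 and 0.789). Of the largest differences in the list with MLN0128, *Cebpb* was lower (-1.03, moderated adjusted p = 0.00527) and *Foxa3* higher (0.93, moderated adjusted p = 0.0195).

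The LIN28 and let-7 pathway list had 14 tested genes, none of which passed the 1.5-fold test with either drug. In the test against 0, 2 were lower and 1 was higher with MLN0128, a share not above that of all tested genes (17.1% and 14.9%), and none passed with everolimus. The higher gene was *Tut4*, which codes for a terminal uridylyl transferase. It was at 15.5, 14.2 and 11.8 FPKM with MLN0128 against 6.74, 8.15 and 7.75 FPKM with vehicle, a difference of 0.79 (moderated adjusted p = 0.00148). *Arid3a* had the next largest difference, at -0.64 (moderated adjusted p = 0.0854). *Hmga1*, the relative of *Hmga2*, was at 51.0 to 64.9 FPKM with vehicle, far above *Hmga2*, and its differences were -0.12 and 0.42 (moderated adjusted p = 0.588 and 0.0984). *Lin28a* was not analysed here.

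The list of heparan sulfate synthesis and glypican processing had 15 tested genes, most of which build or trim sugar chains such as those of GPC3. None passed the 1.5-fold test with either drug. In the test against 0, 1 was lower (*Glce*) and 1 was higher (*Xylt2*) with MLN0128, where 17.1% and 14.9% of all tested genes were. *Sulf2*, a sulfatase that edits the chains, had the largest difference with MLN0128, at 0.60 (moderated adjusted p = 0.214), and *Notum* had the largest with everolimus, at 0.55 (moderated adjusted p = 0.0574). Among the other glypicans, *Gpc4* went the other way from *Gpc3*. It was at 7.22, 8.95 and 7.85 FPKM with vehicle, 12.4, 12.2 and 10.6 FPKM with MLN0128, and 12, 14.3 and 10.8 FPKM with everolimus, and both differences passed the test against 0 (0.50 and 0.57, moderated adjusted p = 0.0128 and 0.0205). In MLN0128 replicate 3, the male mouse of that group, *Gpc4* was at 10.6 FPKM, the lowest of the MLN0128 tumors and above all vehicle-treated tumors. *Gpc1* and *Gpc6* were at 0.582 FPKM or less in every library and were not tested.

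The relatives of *Bex1* and *Bex2* had similar values to theirs. *Bex3* was at 200, 137 and 171 FPKM with vehicle and 76.3, 88.9 and 88.5 FPKM with MLN0128 (difference -0.98, moderated adjusted p = 0.0166), and *Bex4* was at 232, 158 and 179 FPKM and 101, 98.7 and 128 FPKM (-0.78, moderated adjusted p = 0.0329). In the male MLN0128 replicate 3 these genes of the X-linked family were at 88.5 and 128 FPKM, below all vehicle-treated tumors. With everolimus both were lowest in replicate 2, at 54.5 and 89.1 FPKM, and neither difference passed a test. *Sall1*, the relative of *Sall4*, was at 11.7 to 18.2 FPKM with vehicle and lower with MLN0128 (-0.64, moderated adjusted p = 0.0215), and *Sall2* was at 0.223 FPKM or less in all tumors. Over the 6 tested relatives, 3 were lower and 1 was higher with MLN0128 in the test against 0, and 1 was higher with everolimus, where the shares of all tested genes were 17.1% and 14.9% with MLN0128 and 3.78% higher with everolimus.

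Of 15 other fetal liver and progenitor genes, 4 were lower with MLN0128 and 2 with everolimus in the 1.5-fold test (1.65% and 0.570% of all tested genes), and none was higher. In the test against 0, 8 were lower with MLN0128 (17.1% of all tested genes), and 7 were lower and 1 was higher with everolimus (6.05% and 3.78%). *Sox9* and *Prom1* passed the filter only with the help of the vehicle-treated tumors, and *Dlk1* only with that of the everolimus tumors. Any place these genes have in the counts was favored by the filter, so that the counts only describe the list. *Mdk*, a heparin-binding growth factor, went from 6.45, 8.10 and 9.76 FPKM with vehicle to 0.638 to 1.17 FPKM with MLN0128 and 0.320 to 1.06 FPKM with everolimus, with differences of -2.30 and -2.38 (treat adjusted p = 0.000437 and 0.000489). *Spink1*, a trypsin inhibitor that is raised in HCC, was lower with MLN0128 (-1.72, treat adjusted p = 0.0380). The other genes counted with MLN0128 were *Krt19* (-4.05) and *Sox9* (-1.51), which are also biliary markers. The difference of *Sox9* is a description with no test, since it needed the vehicle-treated tumors to pass the filter. The sum of the 6 biliary markers was 41.8 to 96.7 FPKM with vehicle, 16.6 to 32.8 FPKM with MLN0128 and 21.2 to 66.2 FPKM with everolimus, and the macrophage sum was 89.3 to 128, 38.3 to 53.7 and 59.9 to 167 FPKM. The part of these cells in the differences of the 8 members was not tested. The imprinted genes of the list were spread in MLN0128 tumors. *H19*, *Igf2* and *Peg3* were at 64.1% to 134%, 62.2% to 128% and 91.6% to 135% of their vehicle means, *Meg3* and *Peg10* were at 21.9% to 53.1% and 34% to 78.6%, and *Dlk1* was at 22.3% to 442%, where *Afp* was at 9.02% to 13.1%. *Dlk1* was low, at 0.0587 to 0.462 FPKM with vehicle, and its lowest MLN0128 value rested on 8 reads, so that counting error is part of its spread.

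**Figure D5:**
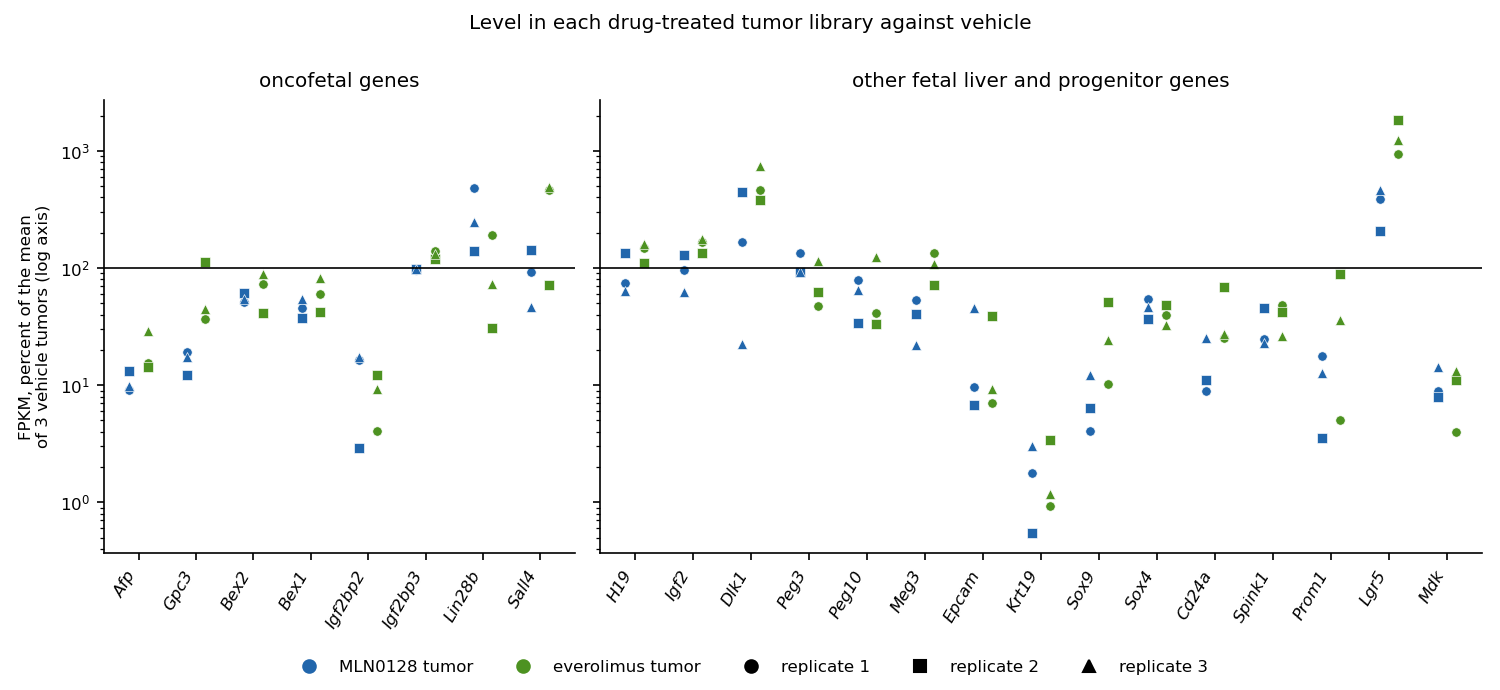
FPKM of each MLN0128 (blue) and everolimus (green) tumor as a percentage of the mean of the 3 vehicle-treated tumors (y axis, logarithmic, with a line at the vehicle mean) for the 8 oncofetal genes past the filter and 15 other fetal liver and progenitor genes. *Afp* lies at 9.02% to 29.0% in the 6 drug-treated tumors, *Igf2bp3* at 96.3% to 140%, and *Krt19* at 0.549% to 3.41%.

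The genes whose pattern over the 9 tumors was nearest to that of *Afp*, by the root mean square difference of centered log2(FPKM + 1) among 14395 genes, were *Wnt4* (0.377), *Hkdc1* (0.388) and *Sgk1* (0.403), where the spread of *Afp* itself was 1.40 on the same scale. Their mean FPKM with vehicle, MLN0128 and everolimus were 34.9, 4.34 and 8.81 for *Wnt4*, 23.6, 1.99 and 4.51 for *Hkdc1*, and 26.1, 1.54 and 4.30 for *Sgk1*. The genes nearest to *Gpc3* were *Trf* (0.266), which codes for transferrin, *Tm4sf4* (0.322) and *Fbp2* (0.327). *Trf* was at 61.2, 17.3 and 54.2 FPKM with vehicle, MLN0128 and everolimus and, unlike *Gpc3*, was higher in normal liver, at 260 FPKM. These likenesses describe 9 libraries of 3 groups and were not tested.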

How the data were processed

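RNA-seq of normal liver and liver tumors was analysed from the deposited FPKM of 12 libraries in 4 groups of 3 mice. Library preparation and sequencing were done by Novogene. The authors counted reads by Ensembl gene, changed these to Entrez genes with org.Mm.eg.db symbols, and deposited linear FPKM rounded to 3 significant digits. The submitters' processing notes name GRCm38 and FastQC 0.11.7, and the aligner is not given in the sources used here. Replicates are separate mice, as far as the labels tell.

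Values were taken as log2(FPKM + 1). The 14397 genes that reached 0.5 FPKM in 3 or more libraries were fitted with limma 3.58.1 in R 4.3.3, with all 12 libraries in 1 model, an intensity trend and 8 residual degrees of freedom, and were tested against a fold change of 1.5 (treat) and against 0, at a Benjamini-Hochberg adjusted p of 0.05. The steps were tested on simulated data. Reads per gene were recovered from the FPKM and GENCODE M21 exon lengths (16871 genes) and numbered 17167084 to 25185696 per library, with a median of 18655768. Of values under 20 reads, 98.2% to 98.8% came out within 0.1 of a whole read, where 20.0% would at random. The deposited FPKM carry a scaling between libraries of 0.585 to 0.595 in normal liver and 1.10 to 1.37 in tumors beyond total reads, so that tumor and normal levels depend on it. Symbols turned into dates (22) were left as they were.

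The members, the lists and the let-7 search were chosen with earlier results of these data known. The text names all members, per list the genes past the 1.5-fold test (up to 4) or else the 2 with the largest differences, direct partners and paralogs, and the 3 genes nearest to each member that passed the 1.5-fold test. Other genes of the test against 0 were named after their values were seen. Promoters and miRNAs are RefSeq sequences, found for 8 of the 10 genes. Alternatives covered the pseudocount, filter, scaling, threshold, libraries in the model, the replicate number as a block, limma's voom on recovered reads and each library left out.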

Additional observations from a re-analysis of the deposited data

Results flagged for a closer look

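*Gpc3* differed between the drugs, tested directly: MLN0128 minus everolimus was -1.35 on the log2(FPKM + 1) scale (moderated adjusted p = 0.0201 by limma), with all 3 MLN0128 tumors below all 3 everolimus tumors. It did not pass the 1.5-fold test, and without MLN0128 replicate 1 or everolimus replicate 3 the moderated adjusted p was 0.062 or 0.0554. Without the 2 female MLN0128 tumors this X-linked gene differed by -1.28 (moderated adjusted p = 0.17).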

How the results depend on the processing

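With MLN0128, 2 members were lower in the 1.5-fold test. This count was 1 with an equal sum of FPKM per library, 1 with only the 9 tumor libraries, 1 without MLN0128 replicates 1 and 2, 3 with a pseudocount of 0.1 FPKM, 3 with voom on recovered reads, 5 in the moderated test without a threshold, and 5 when a fold change above 1.5 was asked of it, and it ran from 1 to 2 with each library left out. With everolimus the count of 1 became 2 with a pseudocount of 0.1 FPKM, with voom on recovered reads and in both moderated tests. Between MLN0128 and everolimus the count of 0 became 1 in both moderated tests. *Gpc3* was the call lost and *Igf2bp2* the call gained with the pseudocount or voom, and each count that includes *Igf2bp2* owes it to the filter, which it passed through the vehicle-treated tumors only. The difference of *Igf2bp2* from normal liver turned sign with MLN0128 at 0.09 (equal sum) and 0.05 (plain library totals), and with everolimus at 0.00 (equal sum). These scalings moved the median of all genes between tumors and normal liver by 0.54 to 0.90, and between MLN0128 and other tumors by 0.10 to 0.19. The replicate numbers did not pair the mice (correlations of same-numbered libraries -0.289 to 0.148), and with the replicate block the counts stayed at 2 and 1 (*Afp* with MLN0128 -3.22, treat adjusted p = 0.000863). Some differences that passed no test also changed sign among the 24 alternatives, up to 0.19 for *Lin28b* (everolimus minus vehicle, -0.05), 0.18 for *Igf2bp3* and 0.08 for *Sall4* (MLN0128 minus vehicle, both -0.03), and 0.03 for *Bex2* (MLN0128 minus everolimus, -0.22). Levels under 1 FPKM rest on few reads, and 3 mice per group limit all tests.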
